A study of Drosophila melanogaster with 6 samples.

Results

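CG5770, CG5767, CG4734 and CG15213 are 4 genes of Drosophila melanogaster that carry only the CG numbers of the genome annotation. They are read here by 5 probe sets, of the 260 in the authors' deposited table of differences and of 18769 on the array. The genes were chosen by their listed differences between the arrays labelled DHR96 mutant and those of the strain Canton S: CG5770, CG4734 and CG15213 (a pair of probe sets) as listed rises, and CG5767 because it lies next to CG5770. Their values in that contrast are therefore a description, with no test. All 4 were found in RefSeq's Release 6 gene list for the fly, which lists each as protein-coding. The deposited table gives no ontology term for any of the 5 probe sets, so no function is stated for them here.

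The samples were 6 extracts of total RNA from whole adults aged 7 days on standard food, 3 from Canton S, the control the submitters call genetically matched, and 3 from the DHR96 mutant, each on its own Affymetrix array. The labels name no allele or promoter, and do not say if the extracts come from flies collected separately, so the spread between them may be technical. In whole animals, fewer cells of a type and less RNA per cell cannot be told apart.

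DHR96, now Hr96, is a nuclear receptor, a transcription factor of the family whose members can be controlled by small lipophilic ligands. In the fly it is known for the response to foreign compounds and for the handling of dietary fat and cholesterol, in which the midgut and the fat body take part. An Affymetrix probe set summarises several short probes to the 3′ part of a transcript. In its names, the ending "_at" marks probes designed to match 1 transcript, and "_x_at" a set in which some probes also match other sequences.

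Hr96 itself read 527, 498 and 546 in Canton S, against 977, 985 and 928 where the label says DHR96 mutant, so its signal was higher, not lower, there. The mutation and its place relative to the probes are not given, and the labels alone set the direction of each difference below. A poly-A control RNA added to samples at labelling, Dap 3′, read 1188, 1208 and 1007 in Canton S and 1217, 473 and 519 on the mutant arrays. Mutant replicates 2 and 3 thus stand apart from the other 4 arrays. Neither the labels nor the file headers give a batch, so a batch of these 2 arrays is an inference from the controls. Each member is also given its difference in a fit blocked for this inferred batch, which sets mutant replicate 1 alone against Canton S. Across all probe sets the median log2 difference was -0.0015. Intensities are linear and already normalized by the authors. The arrays labelled DHR96 mutant are called the mutant arrays below. Log2 differences are mutant minus Canton S on log2(intensity + 16), which understates the change of a dim probe set. Their SEs come from a limma fit, which draws the variance of each probe set toward that of probe sets of like intensity. For each member probe set this SE is smaller than its own arrays alone would give.

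CG5770, the member with the largest difference, was 3.46-fold higher on the arrays labelled DHR96 mutant. Its probe set read 396, 340 and 499 on Canton S arrays 1 to 3 and 1255, 1709 and 1413 on mutant arrays 1 to 3. The groups lay far apart: the lowest mutant array was 2.52 times the highest Canton S array. The means were 411 ± 80.5 and 1459 ± 230.3 (SD, n = 3 each), a log2 difference of 1.79 (SE 0.149), or 1.59 with the inferred batch. In the deposited table this was the second of 180 rises, after Npc2e at 4.37, a gene of a family of sterol-binding proteins, and just ahead of MtnB at 1.77, a metallothionein gene. The authors' deposited table gives it a fold of 3.55 and a q-value of 0%.

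CG5767, the next gene along the chromosome, was lower on the mutant arrays. Its probe set read 3376, 3365 and 3752 in Canton S and 2636, 2899 and 2494 on the mutant arrays. The 3 mutant values all lay under the 3 Canton S values, but narrowly, with the lowest Canton S array 1.16 times the highest mutant array. The means were 3498 ± 220.4 and 2676 ± 205.6 (SD, n = 3 each), a log2 difference of -0.39 (SE 0.0648), or 1.31-fold, and -0.40 with the inferred batch. It came close to the edge of the authors' selection: in the authors' deposited table its q-value of 2.18% was the highest listed, shared with 11 probe sets in all, and 4 of the 80 falls, itself included, had a fold as small or smaller, the smallest being 1.302 for CG11619. Outside the table, 66 probe sets had a larger log2 fall than CG5767 before any pseudocount, and the unlisted probe set nearest below it differed by -0.386.

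CG4734 was 2.77-fold higher on the mutant arrays, with less spread between arrays than CG5770. Its probe set read 3837, 4158 and 4271 in Canton S and 12100.1, 10129.9 and 11919 on the mutant arrays. The lowest mutant array stood at 2.37 times the highest Canton S array. The means were 4089 ± 225.3 and 11383 ± 1088.9 (SD, n = 3 each), a log2 difference of 1.47 (SE 0.0724), or 1.56 with the inferred batch. Among the 180 listed rises it was the seventh, between Fbp1 at 1.56, a fat body gene for the uptake of larval storage proteins, and CG7953 at 1.43.

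CG15213 was higher on the mutant arrays by both of its probe sets, and by less than CG5770 or CG4734. The set designed to match 1 transcript read 1020.2, 1056 and 912 in Canton S and 1294, 1423 and 1444 on the mutant arrays. Its means were 996 ± 74.9 and 1387 ± 81.2 (SD, n = 3 each), a log2 difference of 0.47 (SE 0.0658), or 0.38 with the inferred batch. The x_at set read 1001, 1013 and 865 in Canton S and 1313, 1402 and 1414 on the mutant arrays, with a log2 difference of 0.52 (SE 0.0657), or 0.45 with the inferred batch. Within each set the groups did not overlap, and the lowest mutant value was 1.23 and 1.3 times the highest Canton S value. These differences, 1.39-fold and 1.43-fold, stood at places 125 and 104 of the 180 rises, below the median rise of 0.54 on the log2 scale.

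**Figure D1:**
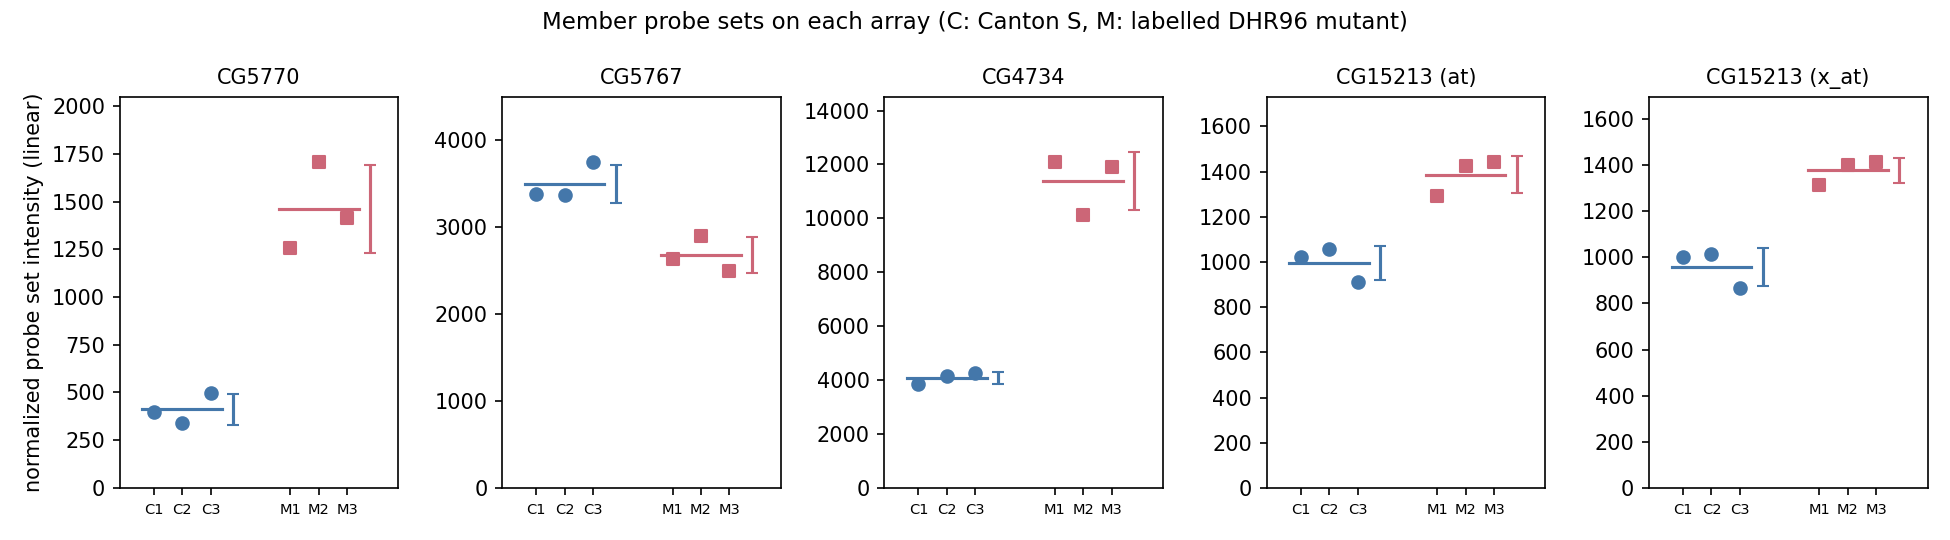
Normalized intensity (linear, from 0) of the 5 member probe sets on each array. Circles C1 to C3 are the Canton S arrays and squares M1 to M3 the arrays labelled DHR96 mutant, horizontal lines are group means and bars the SD (n = 3 each). The mutant arrays lie above Canton S for CG5770, CG4734 and both CG15213 probe sets and below for CG5767, with no overlap in any panel.

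All 5 probe sets had groups that did not overlap, as did 30.9% of the 18769 probe sets, and all 5 passed an adjusted p of 0.05 in limma, as did 6.96%. With the inferred batch as a block, 1 of the 5 passed (CG4734), and 31 of the 18769. That fit rests on 1 mutant array, assumed to vary like the others. Nothing is read from any of these counts, or from which probe set passed, because the same contrast chose the genes.

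**Figure D2:**
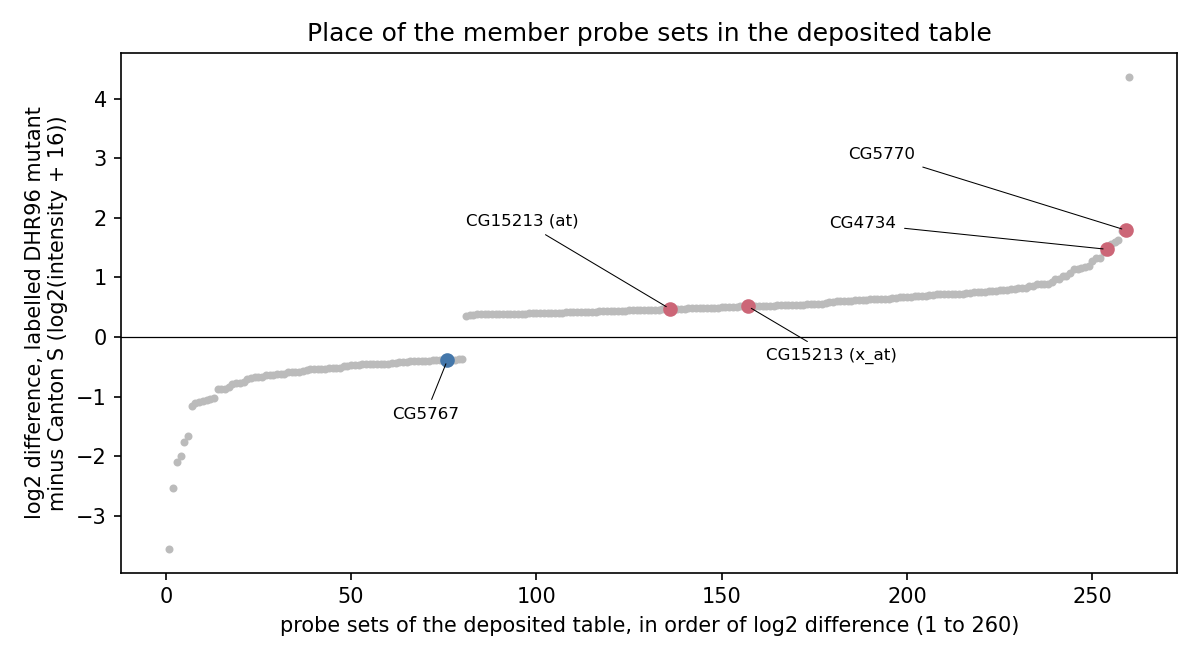
Log2 difference (mutant minus Canton S, on log2(intensity + 16)) of the 260 probe sets of the deposited table, in ascending order. Coloured points are the members: CG5770 at 1.79 and CG4734 at 1.47 sit at the upper end, the CG15213 probe sets at 0.47 and 0.52 on the flat part of the rises, and CG5767 at -0.39 among the smallest falls.

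The spread between arrays of the same group set CG5770 apart from the other 3 genes. Its coefficient of variation was 19.6% in Canton S and 15.8% on the mutant arrays, and its highest array was 1.47 times its lowest in Canton S. For CG5767, CG4734 and the CG15213 probe sets the coefficient lay between 4.03% and 9.57%. The pooled SD within groups of CG5770 was 0.246 on the log2 scale, larger than that of 97.6% of all probe sets and of 89.2% of those in the deposited table. For CG5767, CG4734 and the probe sets of CG15213 it ran from 0.0972 to 0.115. That was still larger than for 80.9% to 87.7% of all probe sets, and for 40.0% to 55.0% of those listed. The difference of 1.79 between the groups of CG5770 stood against this 0.246, and the -0.39 of CG5767 against a pooled SD of 0.0996.

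The neighbours CG5770 and CG5767 differed in opposite directions between the groups, yet the same arrays were highest for both within each group. On Canton S replicate 3 CG5770 was 0.28 and CG5767 0.10 above its own group mean on the log2 scale. On mutant replicate 2 they were 0.24 and 0.12 above. The remaining arrays did not keep this order throughout: CG5770 was lowest on mutant replicate 1 (-0.20) and CG5767 on mutant replicate 3 (-0.10). Being highest on that pair of arrays was not rare, since 13.1% of all probe sets and 6.92% of the deposited table shared it. CG4734 was likewise highest in Canton S on replicate 3, at 0.06, but lowest among the mutant arrays on replicate 2, at -0.16.

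Both CG15213 probe sets were highest on Canton S replicate 2 and mutant replicate 3 and lowest on Canton S replicate 3 and mutant replicate 1. That pair of highest arrays was the most frequent in the deposited table, at 26.5% of its probe sets, and was found in 14.3% of all. The ratio of the x_at set to the other stayed between 0.949 and 1.01 over the 6 arrays. Expressed on the log2 scale, this ratio averaged -0.054 ± 0.0244 in Canton S and -0.010 ± 0.0268 on the mutant arrays (SD, n = 3 each), a shift of 0.044. The probes and any cross-matching sequence are not identified here, so the probe sets are readings of 1 gene and not separate evidence.

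**Figure D3:**
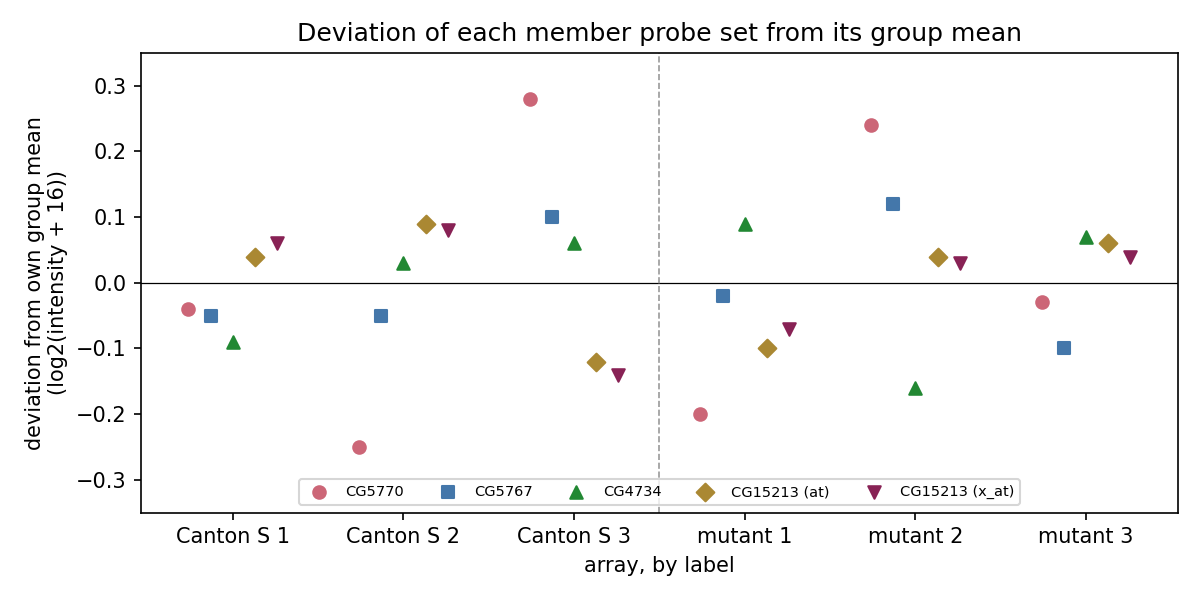
Deviation of each member probe set from the mean of its own group, on the log2(intensity + 16) scale, for the 6 arrays. CG5770 has the widest deviations, from -0.25 to 0.28; CG5770 and CG5767 both peak on Canton S replicate 3 and mutant replicate 2, and the CG15213 probe sets move together.

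The inferred batch brought the difference of CG5770 to 88.7% of its value without it, and those of the CG15213 probe sets to 79.4% and 87.1%. For each member 13 alternative values were computed, which covered the scaling, the pseudocount, the blocks and each array left out. All 13 kept the member's direction. Because the groups did not overlap, only a change of scaling could have reversed it, so nothing is read from this. With an array left out, CG5770 ran from 1.67 to 1.93, CG4734 from 1.42 to 1.55, the CG15213 probe sets from 0.41 to 0.52 and from 0.44 to 0.56, and CG5767 from -0.44 to -0.33. CG5767 did not pass the threshold without Canton S replicate 1 or 3 or mutant replicate 1 or 3. The other 4 probe sets passed with any 1 array left out. In each such fit taken singly, 287 to 803 of all 18769 probe sets passed, and 166 to 218 of the 260 listed, depending on the array. How many passed in every such fit was not counted. Nothing is read from these calls either, since the same contrast chose the genes.

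**Figure D4:**
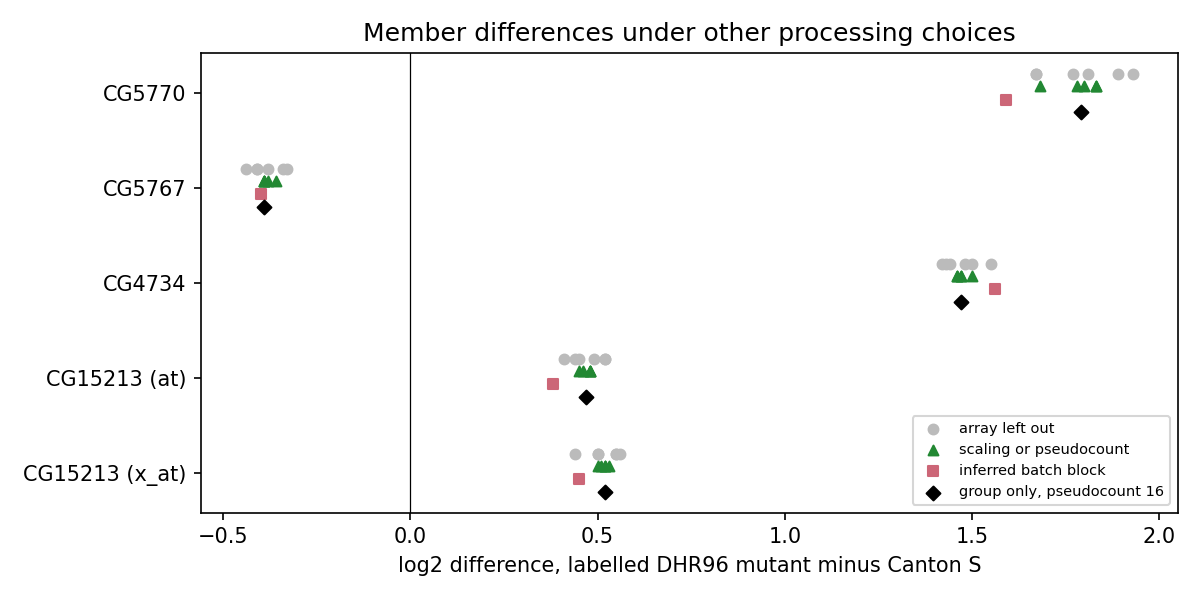
Log2 difference (mutant minus Canton S) of each member probe set under other processing choices. Black diamonds are the reported values and grey circles leave out 1 array each. Green triangles change the scaling or the pseudocount, and red squares add the inferred batch as a block. That block lowers CG5770 from 1.79 to 1.59. No point crosses 0, which the groups not overlapping fixed for all but the scaling.

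In gene order, CG5770 and CG5767 lay in a stretch with further listed genes, all without a stated function. Within 5 protein-coding genes to either side of CG5770, the deposited table lists CG5767 (1 gene away), CG10910 (2 away) and CG14495 (3 away on the side of CG5767). CG10910 read 710, 633 and 757 in Canton S and 1009.7, 897 and 971 on the mutant arrays, a log2 difference of 0.45. CG14495 read 602, 574 and 598 in Canton S and 914, 789 and 913 on the mutant arrays, a log2 difference of 0.54. The groups did not overlap for either gene, as for 30.9% of all probe sets, and both genes were listed for this same contrast. So CG5767 was the 1 lower gene of these 4, and CG5770 the 1 with a difference above 1 on the log2 scale. None of the 4 has an ontology term in the deposited table.

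Of the 244 listed genes placed in gene order, 156 (63.9%) had no other listed gene within 5 genes, and 10 (4.1%), CG5770 and CG5767 among them, had 3 or more. Next to each other lay 26 pairs of listed genes, of which 15 were both higher, 5 both lower and 6 opposite. CG5770 and CG5767 are 1 of the 6 opposite pairs, which also include Npc2e with Npc2d and the maltase genes Mal-B1 with Mal-B2. The list was selected on this contrast and some genes belong to more than 1 pair, so these counts describe the list only.

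CG4734 had 2 listed genes within 5, and they differed in opposite directions. AttC, an antimicrobial peptide gene 5 genes away, read 742, 619 and 496 in Canton S and 1673, 925 and 1728 on the mutant arrays (log2 difference 1.16), with mutant replicate 2 lowest, as for CG4734. CG4716, 4 genes away and annotated in the deposited table as a methylenetetrahydrofolate dehydrogenase, read 15881, 15995 and 15202 in Canton S and 13253, 11255 and 11617 on the mutant arrays (log2 difference -0.38). CG15213 had 0 listed genes within 5.

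The genes of the table whose pattern was most like each member were found by the root mean square difference between log2 values centred on each probe set's mean over the 6 arrays, with 256 other probe sets compared. For CG5770 these were Fbp1 (0.264), CG8534 (0.297) and CG4734 (0.300). Because each distance includes the difference between the groups, by which the genes were chosen, probe sets of similar difference rank as alike. Fbp1 read 574, 570.2 and 637 in Canton S and 1337, 1812 and 2338 on the mutant arrays, and CG8534, which the table annotates with fatty acid metabolism and acyltransferase activity, read 796, 650.5 and 556 and then 1585, 2340.4 and 2206. No probe set of the table came closer to CG5770 than 0.264. A distance also holds the spread of both probe sets, and that of CG5770 was wide (pooled SD 0.246). CG8534 was lowest in Canton S on replicate 3, where CG5770 was highest.

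The likest to CG5767 were the falling genes CG11368 (0.0426), CG7631 (0.0529) and CG33173 (0.0635). The table annotates CG7631 as an astacin metalloendopeptidase and CG33173 with an ATP-binding cassette transporter complex. These distances are not set against those of CG5770. The median over all compared probe sets was 0.451 for CG5767 and 0.714 for CG5770. CG11368, which has no term, read 2350.0, 2305 and 2551 in Canton S and 1743, 1840.4 and 1648 on the mutant arrays. Its highest array in each group, Canton S replicate 3 and mutant replicate 2, was that of CG5767.

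CG4734 was most like Npc1b (0.117), which serves sterol absorption from the gut, Smg6 (0.128), which acts in nonsense-mediated mRNA decay and lies next to Hr96, and CG7953 (0.132), which has no term. Npc1b read 406, 456 and 416 in Canton S and 1148, 1081 and 1052 on the mutant arrays. For each CG15213 probe set the likest was the other one (0.0302). After it came Cyp4s3 (0.0349), a cytochrome P450 gene, and reb (0.0361), a gene of chitin deposition in the tracheae, for the 1-transcript set, and Acbp3 (0.0412), annotated with acyl-CoA binding, and CG10936 (0.0417) for the x_at set. These names depend on the measure. Ranked by Pearson correlation over the same 6 arrays, the 3 likest kept none of those named for CG5770, for which Fbp1, CG8534 and CG4734 came at places 21, 39 and 27, and none of those named for CG4734. CG11368 stayed for CG5767, and each CG15213 probe set kept only the other.

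**Figure D5:**
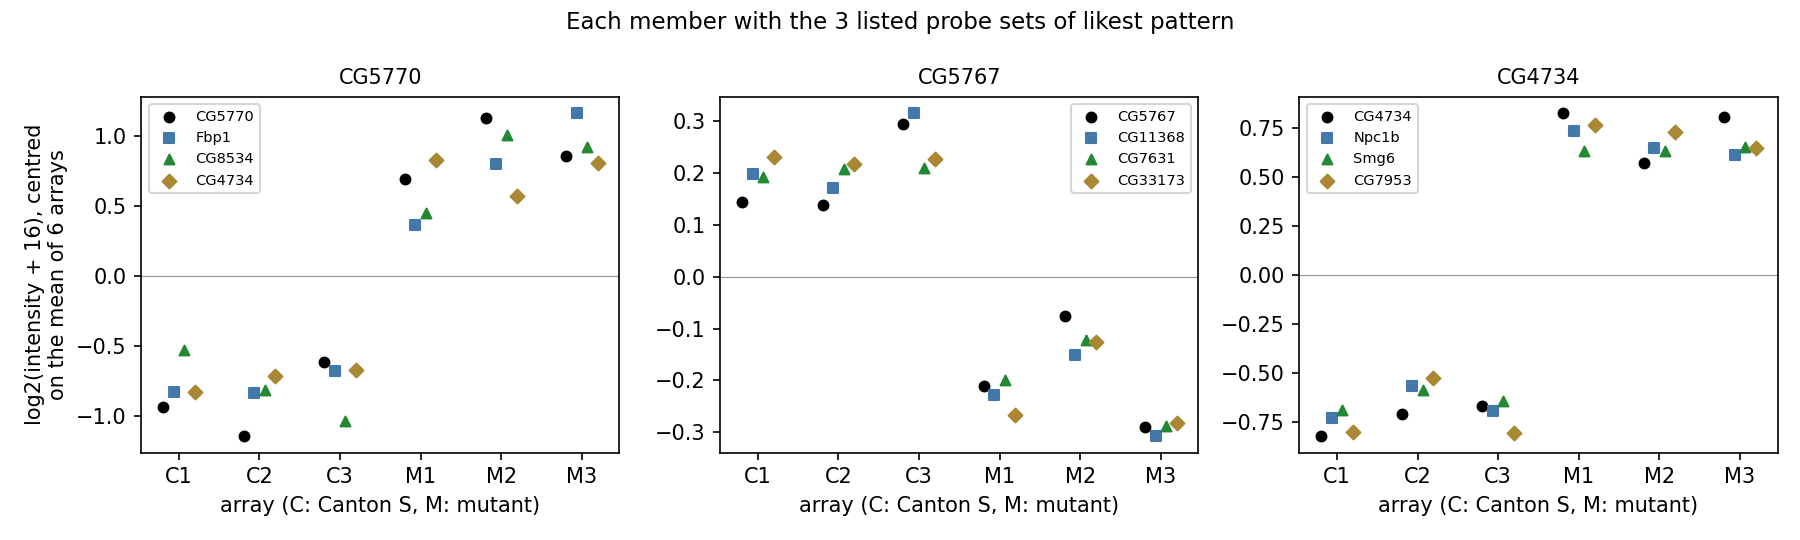
Centred log2(intensity + 16) on the 6 arrays for CG5770, CG5767 and CG4734 (black circles), each with the 3 listed probe sets of likest pattern. Points of CG5767 and CG4734 lie at distances of 0.0426 to 0.132 from their matches, and those of CG5770 at 0.264 or more. Each distance includes the difference between the groups and the spread of both probe sets, so members are not compared.

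Markers of tissues that contribute to a whole fly could be named only where the authors had listed them as differing. Since 243 of the 260 listed probe sets passed limma, that they passed was nearly fixed by that selection, and their levels are given as a description. Of 9 fat body genes, the 5 in the deposited table were all higher on the mutant arrays, 4 of them past the threshold, with a summed intensity of 4565 to 5505 in Canton S and 9847 to 14623 on the mutant arrays. Of 9 midgut genes, 6 are in the table, 5 lower and 1 (Npc1b) higher, all past the threshold, with sums of 27370.4 to 29376 and of 14156 to 16943. Of 5 cuticle genes, 3 are in the table, all higher and past the threshold (4743 to 5938 and 9001 to 11846), and of 5 male accessory gland genes 1 is, also higher and past the threshold (8798 to 9778 and 11614 to 12601). No gene of the ovary, testis, head and muscle lists is in the table, and the other markers were not identified among the probe sets here. The part of these tissues in the differences of CG5770, CG5767, CG4734 and CG15213 was not tested.

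In the symbols of the deposited table, which are older than the names used here, genes with a CG number for a symbol made up 181 (69.6%) of the 260 listed probe sets, the 5 members included. In current symbols they made up 111 (42.7%), with 73 higher, 38 lower and 6 rises of at least 1 on the log2 scale. Of the 181 by the older symbols, 123 (68.0%) were higher, with a median log2 difference of 0.55 among the rises, against 57 of 79 (72.2%) and 0.52 for probe sets of genes with a name. A log2 difference of at least 1 was found for 11 rises of genes with a CG number, CG5770 and CG4734 among them, and for 8 of genes with a name. The members were among the 85 probe sets (32.7%) with no ontology term in the table, of which 61 were higher and 24 lower.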

How the data were processed

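The authors' deposited value table holds linear probe set intensities that they had normalized between arrays, as the near-equal quantiles show. MAS5 appears in the submitters' processing notes without a version or a stated role, so the background correction and summary are not known here. The median of an array was 474.0 to 488.1, its lowest value 97.2 to 103.4. A second table, deposited by the authors, gives per the file headers a SAM score, a log2 difference, a fold with its sign, and q-values as percentages. Its log2 difference equalled the mutant minus the Canton S mean within 5.68e-10.

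Here 18769 probe sets (183 manufacturer's controls left out) were fitted with limma 3.58.1 in R 4.3.3 on log2(intensity + 16), with group as the only term, an intensity trend, and Benjamini-Hochberg adjustment at 0.05. Of the 257 listed probe sets that name 1 gene, 248 matched the Release 6 gene table, which served for names and gene order alone, since the build of the files is not given. Gene order counted protein-coding genes. No sequence was used.

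The named genes are the members, the 3 likest probe sets of each, listed genes within 5 genes of a member, and the listed genes next to a member in order of difference; others were chosen after their values were seen. The members and lists were chosen with earlier results of these data known. Alternatives were other scaling and pseudocounts, the dimmest 25% left out, robust and untrended variances, a replicate block, a block for a batch inferred from the poly-A controls, and each array left out. The number of arrays limits the precision.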

Additional observations from a re-analysis of the deposited data

How the results depend on the processing

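No member changed direction under any alternative, which the groups not overlapping had fixed for all but the scaling. None of the 13 values computed for each moved by more than its pooled SD within groups. With 3 arrays per group, leaving 1 out cannot move a difference that far, and the replicate block leaves it unchanged. Nothing is read from either result for those settings. The number of member probe sets past the threshold, 5, became 3 with the replicate block (CG5767 and the 1-transcript set of CG15213 did not pass) and 1 with the inferred batch; it ranged from 4 to 5 with an array left out and stayed at 5 under the others. Of the deposited table's 260 probe sets, 243 passed; the replicate block gave 152 and the inferred batch 29. Over all probe sets the count of 1306 became 240 with the replicate block, 31 with the inferred batch and 813 with no intensity trend, and ranged from 287 to 803 with an array left out (287, 803 and 494 without Canton S replicates 1, 2 and 3, and 450, 587 and 426 without mutant replicates 1, 2 and 3). The other settings, scaling, pseudocount, robust variances and the filter on dim probe sets, stayed within 1.5 times. The blocks leave fewer degrees of freedom. The labels show no pairing beyond the replicate number. For samples with the same number the correlations of their deviations were 0.19, -0.225 and -0.244 for numbers 1 to 3. Canton S replicate 1 correlated best with mutant replicate 1, but Canton S replicates 2 and 3 with mutant replicates 3 and 2 (0.256 and 0.30). The fit with no pseudocount and the count of members past the threshold were added after seeing the data. Signal over background limits dim readings: no value lies near 0, which compresses low levels. For CG5770 the log2 difference was 1.83 with a pseudocount of 1 and 1.68 with 64.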
